A study of Mus musculus with 81 samples.

Results

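MHC class I presentation genes were followed across normal thymus and thymic lymphomas of the mouse. The members are 10 genes taken by symbol from a table of 51826 genes: B2m, H2-K1, H2-D1, H2-T3, Tap1, Tap2, Tapbp, Nlrc5, Psmb8 and Psmb9. All 10 were found and all 10 passed the filter on low counts. The series holds RNA-seq of 81 libraries from 40 mice and examines how aneuploidy bears on tumour development. All mice were of the strain C57BL/6 x 129S4Sv/Jae and all carried the alleles Plk4(Col1a1), rtTA(Rosa) and centrin-GFP(Rosa). Doxycycline switches on Plk4 through the rtTA activator, and Plk4 is the kinase that controls centrosome number. The groups were 8 untreated normal thymuses that were p53+/+, 10 mice with lymphoma that were p53-/- and untreated, 9 that were p53-/- and given doxycycline, and 12 that were p53+/- and given doxycycline. Doxycycline was given for 2 weeks from 30 days of age. The normal controls thus differ from the lymphomas in p53 genotype as well as in tissue state, and there is no treated normal thymus, so that tumour, genotype and treatment cannot be told apart against them. A single untreated p53+/- normal thymus (mouse 819) stayed outside the comparisons. Age at sampling is not given in the labels. In 13 of the 31 lymphoma mice 4 or 5 biopsies of a multifocal tumour were sequenced, 54 libraries in all, and biopsies of a mouse were summed before testing.

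Class I molecules show peptides from inside the cell to CD8 T cells. The proteasome cuts proteins, TAP carries the peptides into the endoplasmic reticulum, tapasin holds TAP beside an empty class I molecule, and the heavy chain then leaves for the surface with peptide and beta-2 microglobulin. In the thymus, cortical CD4 CD8 double positive thymocytes are known for low class I, which rises as thymocytes mature, and epithelial and dendritic cells present class I ligands for selection. RNA levels say nothing of surface protein.

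H2-K1 and H2-D1 are the 2 classical heavy chain genes among the members, and H2-T3 encodes the heavy chain of the thymus leukaemia antigen, a class I molecule outside the classical pathway that does not depend on TAP. Their upstream bases are shown because the 3 heavy chain genes moved apart in the tumours, and B2m, the shared light chain, is shown beside them. The sequences are the 250 bases before each RefSeq start in GRCm38.p6, read 5′ to 3′ on the strand of the gene. They lie at chr17:34000348-34000597 for H2-K1 (minus strand), chr17:35262844-35263093 for H2-D1 (plus), chr17:36190152-36190401 for H2-T3 (minus) and chr2:122147437-122147686 for B2m (plus). Capitals mark every match, on either strand, to 5 motifs: the kB motif GGGGATTCC, the interferon-response motif GTTTCACTT, its tandem form GAAANNGAA, the cAMP-response core TGACG and the inverted CCAAT box ATTGG.
H2-K1: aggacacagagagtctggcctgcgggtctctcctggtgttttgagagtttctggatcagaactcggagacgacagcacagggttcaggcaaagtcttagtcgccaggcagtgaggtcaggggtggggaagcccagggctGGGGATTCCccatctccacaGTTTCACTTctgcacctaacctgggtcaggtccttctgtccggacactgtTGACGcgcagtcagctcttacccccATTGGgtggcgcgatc
H2-D1: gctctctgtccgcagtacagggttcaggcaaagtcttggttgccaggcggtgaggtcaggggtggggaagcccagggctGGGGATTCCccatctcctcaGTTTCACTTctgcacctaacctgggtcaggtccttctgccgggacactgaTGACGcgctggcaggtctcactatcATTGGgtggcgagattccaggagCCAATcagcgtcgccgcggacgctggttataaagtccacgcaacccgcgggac
H2-T3: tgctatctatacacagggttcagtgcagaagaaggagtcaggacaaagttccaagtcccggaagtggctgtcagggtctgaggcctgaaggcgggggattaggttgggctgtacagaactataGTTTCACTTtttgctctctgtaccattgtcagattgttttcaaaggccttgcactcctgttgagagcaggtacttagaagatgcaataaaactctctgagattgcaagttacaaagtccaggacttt
B2m: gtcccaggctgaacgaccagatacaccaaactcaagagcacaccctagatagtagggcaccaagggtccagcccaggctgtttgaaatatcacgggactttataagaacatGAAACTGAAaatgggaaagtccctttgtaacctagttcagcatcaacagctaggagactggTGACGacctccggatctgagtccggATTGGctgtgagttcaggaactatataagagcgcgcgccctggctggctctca

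The windows of H2-K1 and H2-D1 each held 1 kB motif, 1 interferon-response motif and 1 cAMP-response core, with 1 ATTGG match in the H2-K1 window shown and 2 in H2-D1. The table gives H2-K1 another start, whose window (chr17:34000334-34000583) holds 2 ATTGG matches. The window of H2-T3 held only the interferon-response motif of the 5. That of B2m held the tandem form, the cAMP-response core and ATTGG. Of all 32851 promoters in the table, 0.213% held the kB motif, 0.338% the interferon-response motif, 7.13% the tandem form, 17.8% the cAMP-response core and 33.9% ATTGG within the same 250 bases. Promoters of 8 of the 10 members were in the table. Tap1 and Psmb9 lie head to head on chromosome 17, their windows are largely the same DNA, and each held 1 cAMP-response core and 1 ATTGG match. Tapbp held 2 ATTGG matches and none of the other motifs, and Psmb8 held none of the 5. Such a match is a description of letters and not a measured binding site, and the shares over all promoters are no test of it.

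All members but B2m (chromosome 2) and Nlrc5 (chromosome 8) lie on chromosome 17. In the GRCm38 annotation H2-K1 is at 33996017 to 34000347, Psmb9, Tap1, Psmb8 and Tap2 lie together between 34181987 and 34216321, H2-D1 is at 35262730 to 35267499 and H2-T3 at 36185572 to 36190287. Reads of close relatives could be shared between genes, so each member's transcripts were searched for 75-base stretches that also occur in another gene. None of the 3355 stretches of H2-T3 and none of the 786 of B2m did. The share was 3.10% for H2-K1, 5.56% for H2-D1, 8.27% for Tap2 and 9.97% for Psmb8, and it was 18.6% for Tapbp, mostly with the gene Gm19412. Tap1 and Psmb9 share 138 stretches with each other. Values of Tapbp, Psmb8, Tap2, Tap1 and Psmb9 are uncertain to that extent, since counting by strand is not stated in the sources used here.

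Library totals ran from 1030400 to 26871729 counts, and the 2 lowest (1030400 and 1710821) were both biopsies of the treated p53-/- mouse 857. Several samples stood apart. The tumour of untreated p53-/- mouse 881 had the T-cell gene Cd3e at 1.81 CPM (read counts per 1000000, scaled by library) and its 7 T-lineage markers summed to 140 CPM against a group median of 1967. Normal thymus 387 had Cd3e at 60.3 CPM, where the other normal thymuses had 212 to 398. Its thymic epithelial markers summed to 134 CPM (others 1034 to 1957), its fat markers to 9105 (others 688 to 3893), its fibroblast markers to 2296 (others 155 to 318) and its macrophage markers to 2258 (others 393 to 1182). Thymus 387 was also the highest normal sample for B2m, H2-K1, H2-D1, Tapbp and Nlrc5, and the part of its makeup in these values was not tested. Of the 54 biopsies, 53 correlated best, over 11566 genes, with a biopsy of their own mouse (r of gene-centred log2 CPM from 0.481 to 0.952), whereas biopsy 3 of treated p53-/- mouse 869 correlated best with another mouse (r = 0.280, against 0.216 with its own). The sex-linked genes did not match the labelled sex in 3 lymphoma mice (869, 870 and 328). The fits against normal thymus without mouse 387, mouse 881 or that biopsy follow the members' values.

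Against normal thymus, the lymphomas had lower RNA of the classical heavy chains, the light chain, tapasin and, in the treated groups, Tap1 and Nlrc5, while H2-T3 was higher. In untreated p53-/- lymphoma 4 of the 10 members were called lower and 1 higher. In treated p53-/- lymphoma 6 were lower and 2 higher, and in treated p53+/- lymphoma again 6 were lower and 2 higher. A call is an adjusted p under 0.05 in the edgeR quasi-likelihood test with Benjamini-Hochberg adjustment over 17843 genes. Of all those genes 17.5% were lower and 23.2% higher in the untreated p53-/- group, 26.7% lower and 25.4% higher in the treated p53-/- group, and 25.3% lower and 25.6% higher in the treated p53+/- group. The median log2 fold change of the members was -0.56, -1.28 and -0.77 in that order, and that of all tested genes was 0.08, -0.04 and 0.00. The 3 comparisons share the 8 normal thymuses. In bulk tissue, fewer cells of a type and less RNA per cell cannot be told apart.

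**Figure D1:**
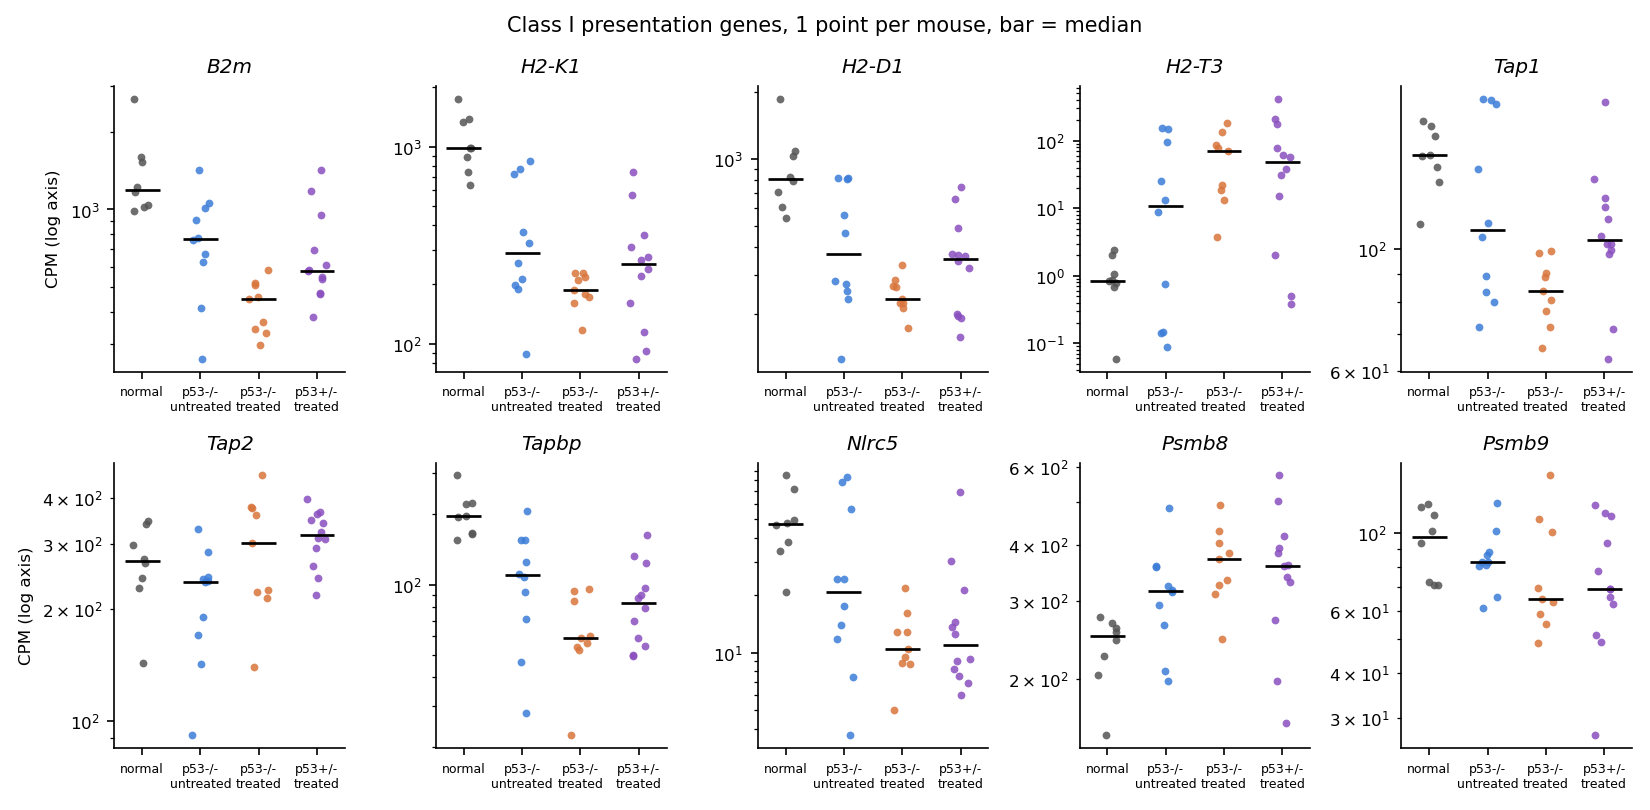
CPM of each member on a log axis, 1 point per mouse (biopsies summed) in normal thymus, untreated p53-/-, treated p53-/- and treated p53+/- lymphoma, with the group median as a bar. H2-K1 medians fall from 984 CPM in normal thymus to 187 in treated p53-/- lymphoma, while H2-T3 medians go from 0.851 to 69.8.

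H2-K1 carries peptides to CD8 T cells. Its level in normal thymus was 636 CPM at the lowest, 984 at the median and 1747 at the highest. In untreated p53-/- lymphoma it was 88.7, 290 and 845 CPM, in treated p53-/- lymphoma 118, 187 and 228, and in treated p53+/- lymphoma 83.6, 253 and 746. Every treated p53-/- mouse was below every normal thymus, and 27 of all 31 lymphoma mice were. The exceptions were 3 untreated p53-/- mice and 1 treated p53+/- mouse. The fitted log2 fold change was -1.65 (SE 0.39), -2.57 (SE 0.39) and -1.997 (SE 0.35) in the 3 groups, with edgeR adjusted p of 0.000842, 1.32e-06 and 1.13e-05.

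H2-D1, the second classical heavy chain, ran from 539 through a median of 810 to 1851 CPM in normal thymus. The lowest, median and highest values were 126, 374 and 821 CPM in untreated p53-/-, 174, 235 and 333 in treated p53-/-, and 158, 355 and 743 in treated p53+/- lymphoma. It was below the normal range in 25 of 31 lymphoma mice, among them all 9 of the treated p53-/- group. The log2 fold change was -1.08 (SE 0.33), -1.97 (SE 0.33) and -1.40 (SE 0.30), with edgeR adjusted p of 0.00900, 7.26e-06 and 0.000196.

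B2m, the light chain that every class I heavy chain here pairs with, was at 989, 1195 and 2678 CPM (lowest, median, highest) in normal thymus. The corresponding values were 264, 769 and 1418 in untreated p53-/-, 298, 448 and 583 in treated p53-/-, and 385, 579 and 1416 in treated p53+/- lymphoma. All 9 treated p53-/- mice were under the lowest normal thymus, as were 7 of 10 and 10 of 12 in the other groups. B2m fell by 0.86 (SE 0.28), 1.77 (SE 0.27) and 1.07 (SE 0.25) on the log2 scale, with edgeR adjusted p of 0.0115, 1.61e-06 and 0.000463. The highest normal value was that of thymus 387. Without it the fall in untreated p53-/- lymphoma was 0.60 with an edgeR adjusted p of 0.0607, so that this call was lost, and the falls in the treated groups were 1.42 and 0.72.

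Per length of annotated exon, B2m was the most abundant member in normal thymus with a median of 1389 CPM per kb. H2-K1 followed with 335 and H2-D1 with 314 CPM per kb, whose ranges over mice overlap. In treated p53-/- lymphoma the medians were 521, 63.8 and 91.0 CPM per kb. H2-K1 was thus above H2-D1 at the median in normal thymus and below it in each of the lymphoma groups, a difference in order for which no test was run.

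H2-T3 went the other way. The 8 normal thymuses had 0.0590 to 2.41 CPM (median 0.851), from 1 to 28 counts each, and the p53+/- normal thymus had 0.714 CPM. Untreated p53-/- lymphomas ran from 0.0878 through a median of 10.9 to 156 CPM, treated p53-/- lymphomas from 3.75 through 69.8 to 184, and treated p53+/- lymphomas from 0.386 through 47.7 to 414. All 9 treated p53-/- mice, 6 of 10 untreated p53-/- mice and 9 of 12 treated p53+/- mice lay above every normal thymus. The fitted log2 fold change was 4.87 (SE 1.32), 5.76 (SE 1.33) and 6.80 (SE 1.39), with edgeR adjusted p of 0.00335, 0.000489 and 0.00011.

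Not every tumour had H2-T3. The 4 untreated p53-/- tumours inside the normal range were mouse 881 at 0.0878 CPM, mouse 120 at 0.143, mouse 202 at 0.147 and mouse 157 at 0.757 CPM. In treated p53+/- lymphoma they were mouse 884 at 0.386, mouse 24 at 0.509 and mouse 266 at 2.03 CPM. In mouse 869 the value of 18.8 CPM came from biopsy 3. Without that biopsy it was 1.22 CPM, inside the normal range, and the fitted log2 fold change of treated p53-/- lymphoma was 5.67. A log-scale fit over single biopsies with the mouse as a block (limma voom) gave 1.29 for untreated p53-/- lymphoma with an adjusted p of 0.618, in place of 4.87.

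**Figure D2:**
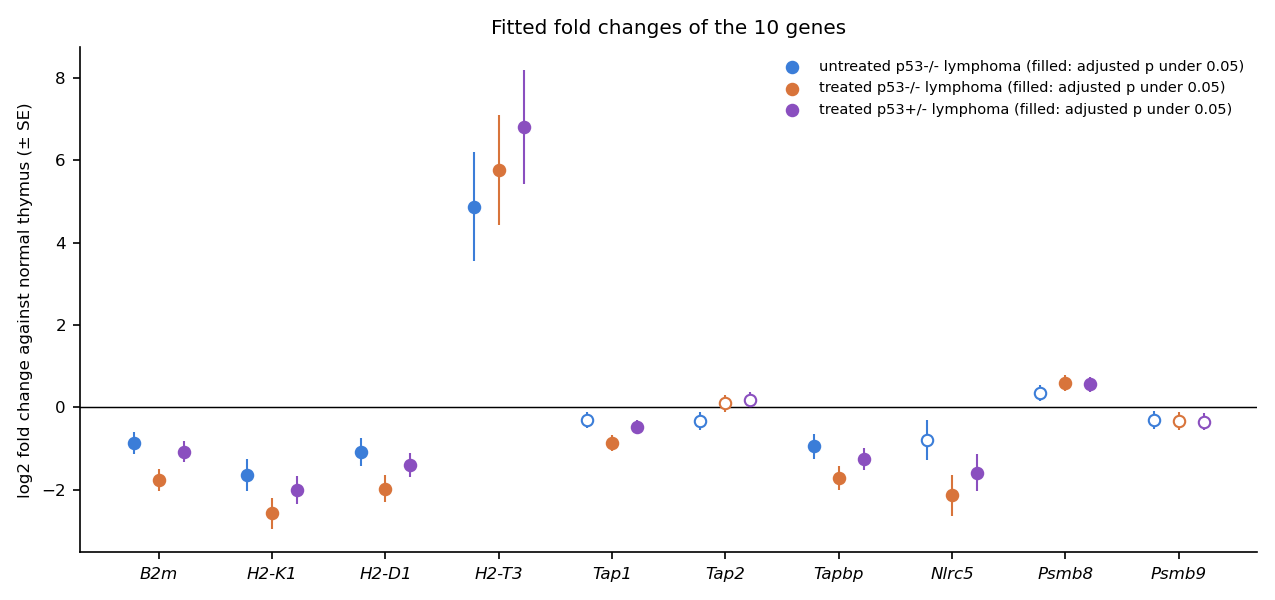
Fitted log2 fold change of each member against normal thymus, with its standard error, for the 3 lymphoma groups. Filled points have an edgeR adjusted p under 0.05. H2-T3 lies at 4.87, 5.76 and 6.80, Psmb8 at 0.34, 0.59 and 0.56, and B2m, H2-K1, H2-D1 and Tapbp lie below 0 with filled points in all 3 groups.

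Tapbp encodes tapasin. Its lowest, median and highest values were 155, 196 and 294 CPM in normal thymus, 27.99, 109 and 207 in untreated p53-/-, 22.5, 58.8 and 95.4 in treated p53-/-, and 49.5, 83.5 and 163 in treated p53+/- lymphoma. It was under the normal range in 27 of 31 lymphoma mice. Tapbp fell by 0.95 (SE 0.30), 1.70 (SE 0.29) and 1.26 (SE 0.27) on the log2 scale, with edgeR adjusted p of 0.0103, 1.19e-05 and 0.000201.

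The TAP transporter is a pair of Tap1 and Tap2 chains. Tap1 was called lower in both treated groups and Tap2 in none. Tap1 was at 111, 148 and 170 CPM in normal thymus, at 71.9, 108 and 187 in untreated p53-/-, at 66.03, 83.8 and 98.9 in treated p53-/-, and at 63.1, 104 and 184 in treated p53+/- lymphoma. All treated p53-/- mice were below the normal range, but in the untreated p53-/- group 5 mice were below and 3 above it. The log2 fold change of Tap1 was -0.30 (SE 0.19), -0.86 (SE 0.18) and -0.48 (SE 0.17), and edgeR gave adjusted p of 0.198, 0.000212 and 0.0202. The call in treated p53+/- lymphoma was lost without normal thymus 387 (log2 fold change -0.38, adjusted p = 0.0856) and without any of 3 lymphoma mice, 266, 643 or 857.

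Tap2 passed the test in none of the 3 groups. Its lowest, median and highest values were 143, 270 and 347 CPM in normal thymus, 91.6, 238 and 329 in untreated p53-/-, 140, 302 and 459 in treated p53-/-, and 219, 318 and 396 in treated p53+/- lymphoma. The log2 fold change was -0.33 (SE 0.21), 0.10 (SE 0.21) and 0.18 (SE 0.20). The group ranges overlapped throughout.

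Nlrc5 is the transactivator of class I genes. It was at 20.8, 47.3 and 84.9 CPM in normal thymus, at 3.69, 20.9 and 83.5 in untreated p53-/-, at 4.99, 10.4 and 21.7 in treated p53-/-, and at 5.98, 10.9 and 69.8 in treated p53+/- lymphoma. Of the 31 lymphoma mice 22 were under the normal range. It fell by 2.13 (SE 0.50, edgeR adjusted p = 0.000559) in treated p53-/- and by 1.59 (SE 0.45, adjusted p = 0.00354) in treated p53+/- lymphoma. In untreated p53-/- lymphoma, where the mice spread from 3.69 to 83.5 CPM, the log2 fold change was -0.80 (SE 0.49, adjusted p = 0.196). The limma voom fit over single biopsies, with the mouse as a block, called it lower there (-1.35, adjusted p = 0.0170).

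Psmb8 and Psmb9 are immunoproteasome subunits that replace catalytic subunits of the standard proteasome. Psmb8 was at 149, 250 and 276 CPM in normal thymus, at 198, 316 and 485 in untreated p53-/-, at 246, 372 and 494 in treated p53-/-, and at 159, 360 and 575 in treated p53+/- lymphoma. In 24 of 31 lymphoma mice it exceeded the highest normal value. The log2 fold change was 0.34 (SE 0.19), 0.59 (SE 0.19) and 0.56 (SE 0.18), with edgeR adjusted p of 0.153, 0.00894 and 0.0106. The call in treated p53+/- lymphoma was lost with no scaling factors (0.41, adjusted p = 0.0768).

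Psmb9 was called in no group. Its values were 71.01, 97.1 and 120 CPM in normal thymus, 61.1, 82.5 and 121 in untreated p53-/-, 48.9, 64.8 and 145 in treated p53-/-, and 26.7, 69.4 and 120 in treated p53+/- lymphoma. The log2 fold change was -0.30 (SE 0.22), -0.33 (SE 0.22) and -0.34 (SE 0.20). Psmb9 and Tap1 start from the same stretch of DNA, and in treated p53-/- lymphoma Tap1 was called lower and Psmb9 was not, a difference between the genes that was not tested.

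Without normal thymus 387 the falls in classical class I were smaller in every group. H2-K1 then had log2 fold changes of -1.42, -2.27 and -1.70, H2-D1 of -0.79, -1.59 and -1.03, and Tapbp of -0.76, -1.47 and -1.02, all still called by edgeR (adjusted p at most 0.0419). Nlrc5 had -0.52, -1.79 and -1.25, called in the treated groups as before, and Psmb8 had 0.38, 0.64 and 0.60 with the same calls. The members called lower were then 3, 6 and 5. Without mouse 881 the untreated p53-/- values were -1.81 for H2-K1, -1.19 for H2-D1, -0.91 for B2m, -1.01 for Tapbp, -0.99 for Nlrc5 and 5.02 for H2-T3, and the counts of calls were as with it. Without biopsy 3 of mouse 869 that mouse's H2-K1 was 95.9 in place of 173 CPM and its B2m 211 in place of 298 CPM. The treated p53-/- log2 fold changes were then -2.64 for H2-K1, -2.01 for H2-D1, -1.80 for B2m and -1.75 for Tapbp, and the counts of calls did not change. When untreated p53-/- lymphoma and normal thymus were fitted alone, the calls of B2m (-0.68, edgeR adjusted p = 0.109), H2-D1 (-0.76, adjusted p = 0.125) and Tapbp (-0.75, adjusted p = 0.0694) were lost and H2-K1 stayed lower (-1.32, adjusted p = 0.0199).

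In treated p53-/- lymphoma 5 members lay wholly below the range of normal thymus (B2m, H2-K1, H2-D1, Tap1 and Tapbp), where 8.97% of all tested genes did, and H2-T3 lay wholly above it, where 9.3% did. Without biopsy 3 of mouse 869 that mouse's H2-T3 lies within the normal range. In the other groups no member was wholly outside the normal range in either direction. The shares of all genes wholly below and above were 4.14% and 5.57% in untreated p53-/- lymphoma and 5.51% and 8.1% in treated p53+/- lymphoma.

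The lymphoma groups were then compared with each other in a fit without normal thymus. No member was called, and of all 16389 tested genes 0% were called in each of the 3 comparisons by edgeR, while DESeq2 called 75, 12 and 3 genes but no member. Between treated and untreated p53-/- lymphoma 5 members had an unadjusted p under 0.05, where 11.7% of all genes did. They were B2m (log2 difference -0.82, SE 0.28), H2-D1 (-0.79, SE 0.34), Tap1 (-0.55, SE 0.20), Tapbp (-0.70, SE 0.33) and Nlrc5 (-1.27, SE 0.52), all lower in the treated group, with edgeR adjusted p from 0.292 to 0.412. Between treated p53+/- and treated p53-/- lymphoma 2 members had such a p, where 5.27% of genes did. They were B2m (0.72, SE 0.25) and Tap1 (0.38, SE 0.19), higher in p53+/-. Between treated p53+/- and untreated p53-/- lymphoma only Tap2 did (0.49, SE 0.22), where 6.33% of genes did. The difference in H2-T3 was 0.92 (SE 1.13), 1.09 (SE 1.16) and 2.01 (SE 1.32), so that its standard error was over 1 in each. These values moved with the setting, from -0.07 (single-biopsy tumours) to 4.14 (limma voom) between treated and untreated p53-/- lymphoma, from 0.33 (limma voom) to 2.13 (single-biopsy tumours) between the treated groups, and from 0.94 (without the sex covariate) to 4.47 (limma voom) between treated p53+/- and untreated p53-/- lymphoma. Without mouse 280, the highest for H2-T3, the difference between the treated groups was 0.39. None was called (adjusted p of 0.206 or more).

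Other genes of the pathway were taken from fixed lists. Of 18 further class I heavy chain and class I-like genes, 9 were lower and 0 higher in untreated p53-/- lymphoma, 10 and 1 in treated p53-/-, and 11 and 2 in treated p53+/- lymphoma, where 17.5%, 26.7% and 25.3% of all genes were called lower. The list's median log2 fold change was -1.24, -1.68 and -1.17. H2-Q7, a gene of the Qa-2 antigen, fell by 2.19, 3.02 and 2.52, and H2-Q6 of the same cluster by 2.58, 3.07 and 2.52 on the log2 scale. Hfe, the class I-like regulator of iron uptake, fell by 1.40, 1.31 and 0.86. H2-T10, a neighbour of H2-T3, was called higher in treated p53+/- lymphoma (1.77, SE 0.64, edgeR adjusted p = 0.0203), and its values in the other groups were 0.60 and 1.25.

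Of 11 tested genes of peptide loading and trimming outside the members, 4 were higher and 0 lower in each lymphoma group, where 23.2%, 25.4% and 25.6% of all genes were called higher. They were Thop1, a cytosolic peptidase that destroys peptides (1.796, 1.51 and 1.55), Canx, the calnexin chaperone (0.71, 0.77 and 0.65), Sec61a1, the core of the translocon (0.71, 0.45 and 0.48), and Ide, a second peptidase (0.90, 0.50 and 0.55). Among the standard catalytic proteasome subunits Psmb5, which Psmb8 replaces, rose on the log2 scale by 0.73 in untreated p53-/- and by 1.74 in treated p53-/- lymphoma and was also called higher in treated p53+/- lymphoma, and Psmb7 by 0.79, 1.298 and 1.12. Psmb6, which Psmb9 replaces, rose by 0.83 and 0.64 in the treated groups, and its value was 0.35 in untreated p53-/- lymphoma. Psmb11, the subunit of cortical thymic epithelium, fell by 8.40, 9.24 and 9.01. Psmb10, a further immunoproteasome subunit, fell by 0.61, 0.65 and 0.56. The PA28 activator gene Psme1 rose in the treated groups (0.52 and 0.70), and Psme2 in treated p53+/- lymphoma (0.72).

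Of 20 regulators of class I transcription, 3 were higher and 6 lower in untreated p53-/-, 4 and 9 in treated p53-/-, and 5 and 10 in treated p53+/- lymphoma. Of all tested genes 23.2%, 25.4% and 25.6% were called higher and 17.5%, 26.7% and 25.3% lower, so the higher calls did not exceed that share. Irf2, an interferon regulatory factor that binds class I promoters, fell by 0.82, 1.68 and 1.39. Ciita, the class II transactivator and a relative of Nlrc5, fell by 1.55, 2.80 and 2.34. Suz12, a subunit of the Polycomb complex that deposits the repressive H3K27 mark, rose by 1.27, 1.34 and 1.22, and its partner Ezh2 rose in the treated groups by 0.70 and 0.63. Of 19 interferon genes, receptors and targets 8, 11 and 10 were lower and 0 higher. The shares of all genes were 17.5%, 26.7% and 25.3% lower and 23.2%, 25.4% and 25.6% higher. Gbp2, a target of interferon gamma, fell by 2.21, 2.47 and 2.03, and Ifit1, a target of type I interferon, by 2.00, 1.81 and 1.72.

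Markers of other cell types differed between normal thymus and lymphoma as well. The 9 thymic epithelial markers summed to 134 CPM in thymus 387 and to 1034 to 1957 CPM in the other normal thymuses, and to 68.6 to 409, 67.02 to 231 and 39.4 to 239 CPM in the lymphoma groups. The 6 mature thymocyte markers had a median sum of 465 CPM in normal thymus, and of 263, 105 and 363 CPM. The 9 immature double positive markers had a median sum of 6241 CPM in normal thymus and of 1972, 3423 and 2310 CPM in the lymphoma groups. The 6 dendritic cell markers had median sums of 446 CPM in normal thymus and 44.1, 160 and 191 CPM in the lymphoma groups, and the 7 macrophage markers 812, 841, 763 and 821 CPM. The 5 fat markers were at 688 to 9105 CPM in normal thymus and at most 185 in any lymphoma, and in the p53+/- normal thymus they were at 106 CPM with B2m at 1691 and H2-K1 at 1168 CPM. Endothelial, fibroblast and cytotoxic markers had median sums of 208, 234 and 84.8 CPM in normal thymus. In the lymphoma groups these were 111 to 148, 321 to 387 and 77.9 to 192 CPM. Single genes of the last 2 lists did not all follow the sums. Of 6 tested cytotoxic genes 0, 3 and 2 were called lower, in the group order used above, and 1 higher each time. Their median log2 fold change was -0.73, -2.65 and -1.83. Of 5 fibroblast genes 1, 2 and 1 were lower and 1 higher each time, with medians of -0.76, -0.67 and 0.49. The part of this in the members' fall was not tested.

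Since 8 members lie on chromosome 17 and the tumours come from a model of aneuploidy, the level of 732 other genes of that chromosome was taken for each mouse relative to all autosomes. The mean difference from normal thymus was -0.00 (log2) in untreated p53-/-, -0.05 in treated p53-/- and 0.02 in treated p53+/- lymphoma (two-sided exact permutation p = 0.995, 0.411 and 0.743, each 0.995 after adjustment). Single mice ranged from -0.20 to 0.36. In the same order of groups 2, 4 and 6 mice were below every normal thymus and 2, 1 and 4 above, which a group mean does not show. Over the lymphoma mice the level of chromosome 2, with B2m, ran from -0.16 to 0.38. That of chromosome 8, with Nlrc5, ran from -0.56 to 0.13. The part of chromosome dosage in the members' values was not tested.

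The genes around H2-T3 were listed after its values were seen. Within 100 kb on either side of its start, 16 of 34 annotated genes were tested. Of these 12 were higher in treated p53+/- and 9 in treated p53-/- lymphoma, H2-T3 included, against 1 in untreated p53-/- lymphoma. In that order 1, 2 and 1 were lower. Of all tested genes 25.6%, 25.4% and 23.2% were called higher and 25.3%, 26.7% and 17.5% lower. H2-T3 set the window, so its own rise is no result of the count. Some genes were near the floor, such as Gm6659, Gm17782 and Gm6623 with mean log2 CPM of -1.07, -1.39 and -0.38. Such genes could pass the filter on low counts through the lymphomas alone. The genes that rose lay almost wholly on the side of lower coordinates, where the T-region class I genes and pseudogenes are. Most tested genes lie on that side, and only Gm10074, Rpp21 and Trim39 were tested on the other. Gm7030 (start at -60.86 kb) rose by 5.65 (SE 1.42) and Gm8909 (start at -21.75 kb) by 3.87 (SE 1.01) in treated p53+/- lymphoma. On the other side Trim39 (81.96 kb) fell by 0.63 and Rpp21 (67.78 kb) rose by 0.51. Gm8909 had an r of 0.96 with H2-T3 over the 31 lymphoma mice, the pseudogene Gm10499 0.97 and H2-T-ps 0.87, which together with P2rx1 (0.89, an ATP-gated channel gene on chromosome 11) and Pex26 (0.85, a peroxisome import gene on chromosome 6) were the 5 genes of 10983 most like H2-T3. How far the T-region genes share reads among themselves was not examined.

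**Figure D3:**
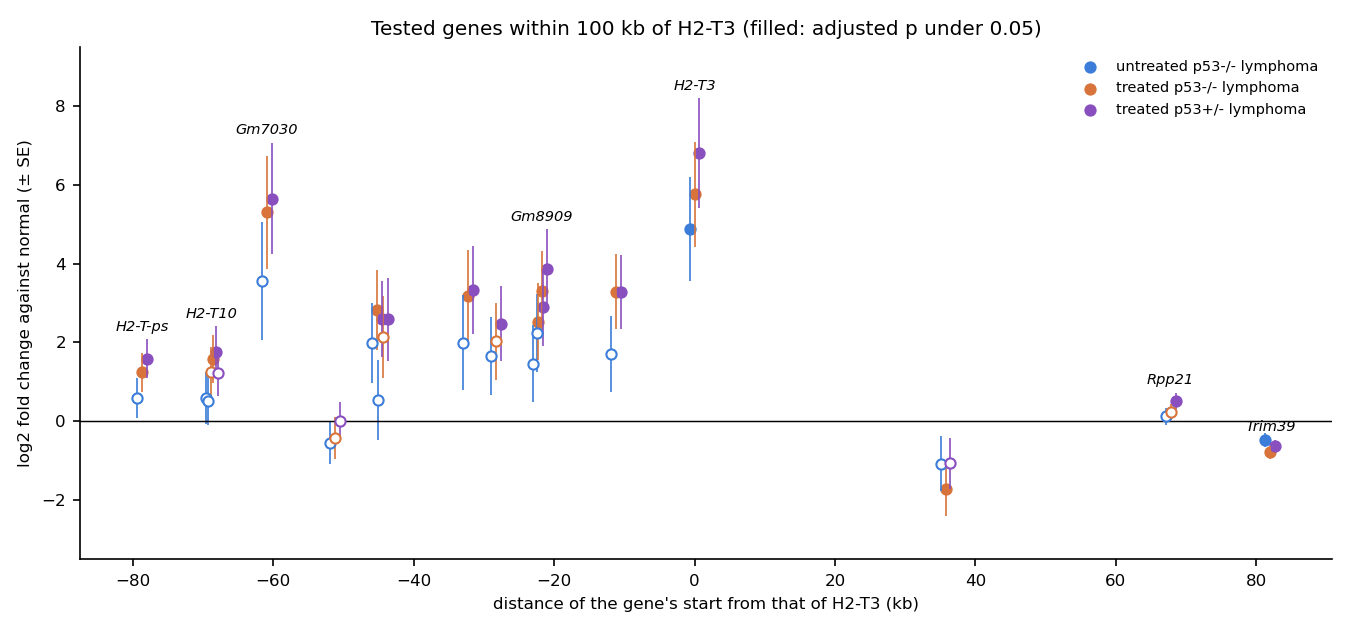
Fitted log2 fold change against normal thymus, with its standard error, of the 16 tested genes whose start lies within 100 kb of that of H2-T3, by distance, for the 3 lymphoma groups. Filled points have an edgeR adjusted p under 0.05. Apart from Rpp21 at 67.78 kb, the raised genes sit between -78.63 kb and H2-T3, and Trim39 at 81.96 kb lies below 0.

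Whether the members vary with Nlrc5 from tumour to tumour was taken over the 31 lymphoma mice, with 9 relations in the family. Tap1 had r = 0.78 and rho = 0.65 (permutation p = 1e-05 for r, the smallest that 100000 permutations can give, adjusted p = 6e-05). H2-K1 had r = 0.69 and rho = 0.57, H2-D1 r = 0.69 and rho = 0.58, and Tapbp r = 0.61 and rho = 0.62, with permutation p adjusted for r of 6e-05, 6e-05 and 0.000607. Tap2 went the other way with r = -0.48 (permutation, adjusted p = 0.0116) and rho = -0.34 (adjusted p = 0.103). That relation did not pass without mouse 881 (r = -0.34, permutation, adjusted p = 0.128), with no scaling factors (-0.39, adjusted p = 0.0562) or over single-biopsy tumours (-0.30, adjusted p = 0.393). B2m (r = 0.28), Psmb9 (0.26), Psmb8 (-0.11) and H2-T3 (-0.34) did not pass the permutation test, with adjusted p from 0.0962 to 0.568. Thus 5 of 9 relations passed for r.

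These relations rest on 4 mice that stood apart in Nlrc5, left out after the plot was seen: 120 at 83.5, 881 at 78.1, 908 at 69.8 and 98 at 56.5 CPM, the next being 309 at 30.4 CPM. Without mice 120 and 881, the 2 farthest from the median, r was 0.69 for Tap1, 0.57 for H2-K1, 0.57 for H2-D1, 0.52 for Tapbp and -0.18 for Tap2. Over the 27 mice without all 4, r was 0.44 for Tap1, 0.41 for H2-K1, 0.40 for H2-D1 and 0.40 for Tapbp, and 0 of 9 relations passed the permutation test (adjusted p = 0.093 for these 4). Within treated p53-/- lymphoma r was 0.55 for Tap1, -0.19 for H2-K1 and -0.41 for H2-D1, within untreated p53-/- lymphoma 0.89, 0.75 and 0.79, and within treated p53+/- lymphoma 0.64, 0.66 and 0.66. In mouse 562, an untreated p53-/- tumour, Nlrc5 was at its lowest of the 31 (3.69 CPM) while B2m was at its highest (1418 CPM).

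**Figure D4:**
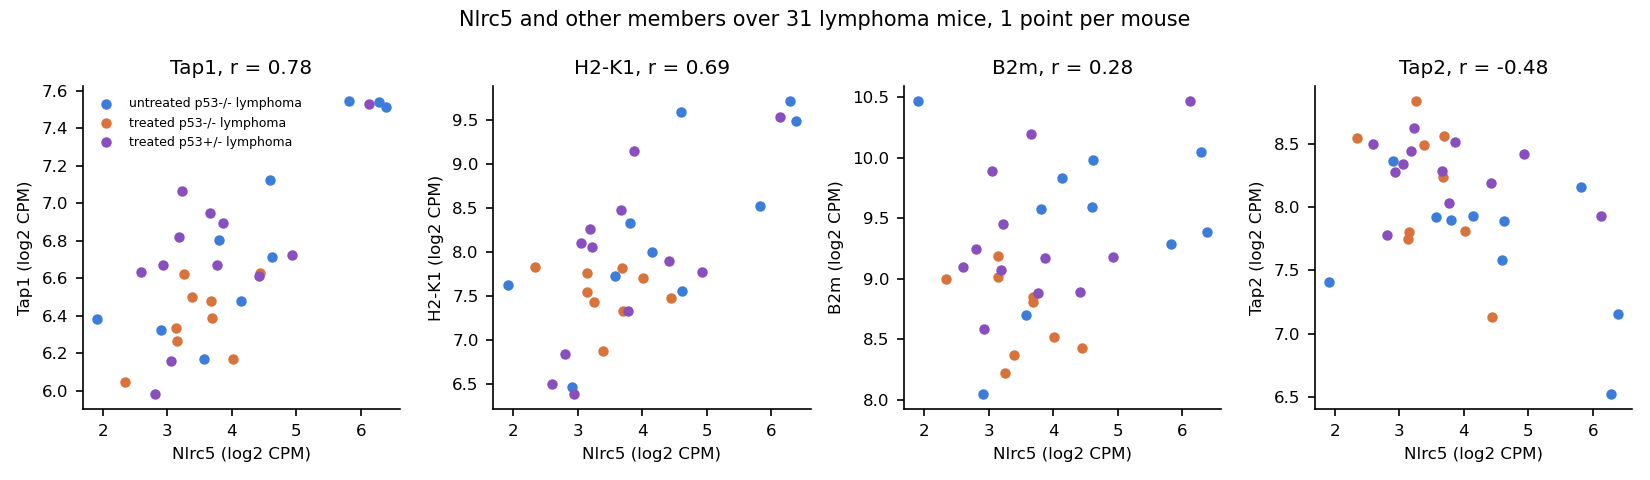
Log2 CPM of Tap1, H2-K1, B2m and Tap2 against that of Nlrc5, 1 point per lymphoma mouse, coloured by group, with r over all 31 mice. The 4 mice at the right are 120, 881, 908 and 98, and r without them is 0.44 for Tap1 and -0.02 for B2m.

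Over the 31 lymphoma mice the mean z-score of the 10 members was most like Uba7, the activating enzyme of the ubiquitin-like modifier ISG15 (r = 0.77), the long non-coding RNA AW112010 (0.77), Samhd1, a dNTP hydrolase that restricts viruses (0.72), Ltb, lymphotoxin beta, which also lies in the MHC on chromosome 17 (0.71), and Cd52, a lymphocyte surface protein (0.69). The score itself had r of 0.83 with Tap1, 0.79 with H2-K1, -0.10 with Tap2 and -0.14 with H2-T3, all of which it contains. The same mice and libraries underlie all of these values, and they are descriptions.

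Biopsies of the same tumour differed in class I RNA, though for each of the 10 members the spread between tumours was larger than that within them. The within-tumour SD of log2 CPM was 0.49 for B2m against 0.66 between the 13 tumours, 0.67 against 1.12 for H2-K1, 0.65 against 1.153 for Nlrc5, 0.19 against 0.55 for Tap2 and 0.21 against 0.45 for Psmb8. Between the highest and lowest biopsy of a tumour the median ratio was 1.78 for B2m, 2.16 for H2-K1, 2.13 for H2-D1, 2.18 for Nlrc5, 1.28 for Tap1, 1.27 for Tap2 and 1.35 for Psmb8. Tap2 and Psmb8 never differed by more than 1.61 and 1.69 times. Biopsies of a tumour share a mouse and were not tested as replicates.

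**Figure D5:**
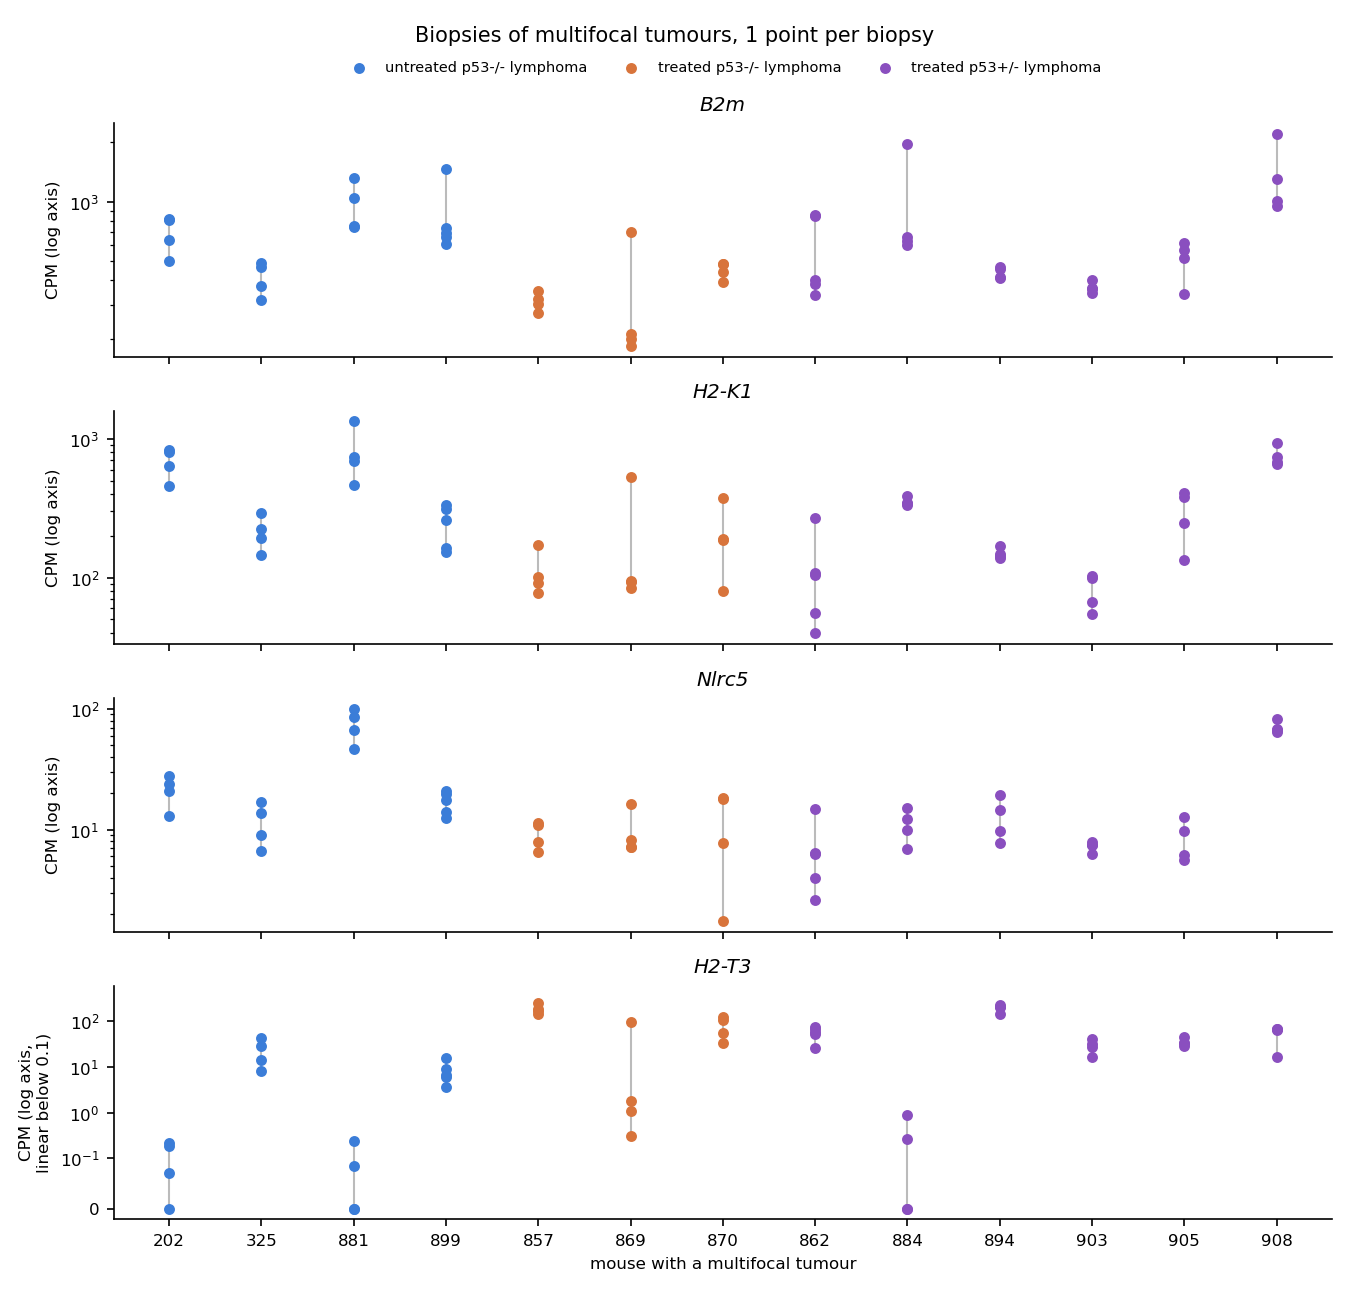
CPM of B2m, H2-K1, Nlrc5 and H2-T3 in each biopsy of the 13 multifocal tumours, 1 point per biopsy, a line joining the lowest and highest of a mouse (log axes, that of H2-T3 linear below 0.1). In mouse 869 biopsy 3 stands at 99.1 CPM of H2-T3, with the other 3 biopsies between 0.303 and 1.81.

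The widest ratio for H2-T3 was in mouse 869. Its biopsies 1, 3, 5 and 7 had 1.11, 99.1, 0.303 and 1.81 CPM of H2-T3. For H2-K1 they had 93.2, 528, 94.0 and 84.6 CPM, for B2m 185, 701, 212 and 201, and for Tapbp 38.6, 141, 33.8 and 33.5. Biopsy 3 was thus the high one for classical class I, light chain, tapasin and H2-T3 alike. Tap2 was at 538, 350, 453 and 388 CPM and Psmb8 at 457, 359, 392 and 339, with biopsy 3 lowest for Tap2 and second lowest for Psmb8. Cd3e was at 113, 277, 137 and 129 CPM and the Y-linked gene Ddx3y at 1.57, 19.5, 1.52 and 2.66 CPM, so that this biopsy also differed in genes outside the pathway. Whether it holds other tumour cells, other tissue or another sample was not tested.

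In the other tumours with H2-T3 counts in every biopsy the ratio was at most 5.22. The 4 biopsies of mouse 894 had 209, 202, 234 and 143 CPM, and those of mouse 857 had 166, 191, 144 and 252 CPM. All 4 biopsies of mice 202, 881 and 884 were at or below 0.896 CPM, among them 5 with 0 counts. No ratio is given for these mice. Leaving out biopsy 3 of mouse 869, the ratio of the spread between to that within tumours went from 2.98 to 4.575 for H2-T3 and from 1.35 to 1.69 for B2m.

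Classical heavy chain and Nlrc5 levels differed between biopsies of further tumours. In mouse 862, a treated p53+/- tumour, H2-K1 was at 55.97, 39.5, 104, 107 and 267 CPM in biopsies 1, 3, 5, 7 and 9, and Nlrc5 at 2.60, 3.97, 6.45, 6.31 and 14.9 CPM. H2-T3 was at 59.1, 73.98, 53.6, 66.4 and 26.7 CPM, lowest where H2-K1 was highest. Nlrc5 varied most in treated p53-/- mouse 870, with 7.75, 1.75, 18.2 and 17.9 CPM in biopsies 1, 3, 5 and 7, where H2-K1 was at 189, 79.8, 374 and 185 CPM. In mouse 908, a treated p53+/- tumour, all 4 biopsies had Nlrc5 between 64.2 and 83.1 CPM and H2-K1 between 661 and 938 CPM. Every biopsy of that tumour was thus in the range of normal thymus for both genes.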

How the data were processed

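RNA from snap-frozen biopsies was sequenced. Per the submitters' processing notes, CASAVA 1.8, fastp, STAR 2.7.2b and RSEM 1.1.17 were used with mm10. The values are expected counts per gene as deposited by the authors, and 14.25% of cells were not whole, so counts were rounded. Whether reads were counted by strand is not given in the sources used here. Biopsies of a mouse were summed, and CPM were scaled by TMM factors. The edgeR 4.0.16 quasi-likelihood test (R 4.3.3) was fitted with sex as a covariate, once over normal thymus with all lymphomas and once over lymphomas alone, with Benjamini-Hochberg adjustment over all tested genes. Alternatives used DESeq2 1.42.0 and limma 3.58.1, whose voom fit took each biopsy as a sample, with the mouse as a block and 1 correlation within mice estimated over all genes. Relations and chromosome levels used permutation tests (scipy 1.17.1). Scripts were tested on simulated data. Library totals of 1030400 to 26871729 counts set the precision of low values such as H2-T3. P-values measure the spread between mice. All members were named. Among each further list's called genes in treated p53+/- lymphoma whose mean log2 CPM reached 2, the 2 highest and the 2 lowest by fold change were named, which can all lie in 1 direction. The members and lists were chosen with earlier results of these data known. The values of 1 further marker list are not reported here.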

Additional observations from a re-analysis of the deposited data

Results flagged for a closer look

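Among 30 sets of a member in a group, the lowest mouse stood apart by Dixon's criterion in 2, and chance alone gives about 1 in 20 sets. Normal thymus 387 had H2-T3 at 0.0590 CPM, where the next lowest normal thymus had 0.691 CPM. The treated p53-/- mouse 857 had Tapbp at 22.5 CPM, where the next lowest mouse of its group had 52.6 CPM.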

How the results depend on the processing

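Of 1176 alternative values of the 21 called member results, 1154 stayed called in the same direction, 22 lost the call and 0 reversed. Of 504 alternative values of uncalled members 1 gained a call, Nlrc5 in untreated p53-/- lymphoma by limma voom. With a log2 fold change of at least 1 required, 2 members were lower in untreated p53-/- lymphoma and 1 was higher in each treated group, and all genes called higher numbered 2232, 2645 and 2554. By limma voom over biopsies 0 members were higher in untreated p53-/- lymphoma, and with only the 2 groups compared 1 was lower there. With no scaling factors 1 member was higher in treated p53+/- lymphoma, and higher calls over all genes in untreated p53-/- lymphoma went from 56.9% to 46.7% of calls. That setting moved the median of all genes from 0.08 to -0.05 there and from 0.00 to -0.12 in treated p53+/- lymphoma. Tap1 in treated p53+/- lymphoma lost its call without mouse 387, 266, 643 or 857 (edgeR adjusted p from 0.0505 to 0.0856), with only the 2 groups compared and with mice of matching sex label only. The chromosome 17 difference was 0.0444 without centring in untreated p53-/- lymphoma (exact permutation, adjusted p = 0.524), and -0.000495 when genes under a mean CPM of 10 were dropped in treated p53+/- lymphoma (exact permutation, adjusted p = 0.994). Without the 4 mice of highest Nlrc5, 0 relations passed. The cause of these changes was not tested. The alternatives without mouse 881, biopsy 3 of mouse 869 or those 4 mice were chosen after seeing the data. Leaving out each mouse in turn moved no count of called members by over 1.5 times. No paired analysis was possible because the replicate numbers are animal numbers and no groups share one.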
